A study of Mus musculus with 8 samples.

Results

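The genes described here are 31 interferon-stimulated and class I presentation genes, measured in the gastrocnemius (calf) muscle of mice. The samples were labelled wild type or GR KO, for knockout of the glucocorticoid receptor. Each gene was represented by the probe set that carried its symbol alone in the array's annotation, and by the brightest of these over all arrays where there were several. Of the 31 listed genes 29 had such a probe set, among 18193 genes in all, and 25 of them were bright enough to be tested, among 11062 genes tested. The 4 genes below the signal limit of 19.4 were Ifit1, Ifit2, Mx1 and Mx2. Isg15 and Ifi44 had no probe set that named them alone and were not analysed here. The tested genes comprised 2 cytosolic RNA sensors, 4 transcription factors, 11 antiviral effectors and modulators, and 8 genes of class I antigen presentation.

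Total RNA of 8 muscles was hybridised to 1 Affymetrix array each, 4 labelled WT and 4 labelled GR_KO here. Both groups carried the strain label C57/Bl6J. The WT muscles were labelled as wild type, with no treatment named, and the GR_KO muscles as GR KO, the form that the series' design text writes as GR(i)skm-/-. The labels name no Cre driver, no time of deletion and no age or sex of the mice, and they do not say whether cells of the muscle other than fibres kept the receptor. Whether each sample was a different animal is not stated either, so the p-values reflect only how much these samples varied, and that variation may be technical. The comparison addresses which transcripts of the whole muscle differed in level between the WT and GR_KO samples. Values are MAS5 signals on a linear scale, and fold changes are differences of mean log2 signal, GR_KO minus WT, with the standard error (SE) of the limma fit.

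Interferons bind receptors that activate Jak kinases, and these phosphorylate Stat2, which acts with Irf9 at interferon-stimulated response elements in the promoters of antiviral genes. The class I pathway, which interferons raise, cuts proteins in the immunoproteasome (Psmb8, Psmb9), carries the peptides into the endoplasmic reticulum (Tap1, Tap2), loads them with the help of tapasin (Tapbp) and shows them at the cell surface on heavy chains such as H2-K1 and H2-D1 bound to B2m. The glucocorticoid receptor, encoded by Nr3c1, is a hormone-activated transcription factor known in immune cells to dampen inflammatory and interferon-driven transcription. Resting muscle fibres are known for low class I levels that rise in inflamed muscle.

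The promoters were searched for the interferon-stimulated response element. RefSeq promoters (build GRCm38.p6, from 250 bases before to 50 after the gene start) were at hand for 25 of the 31 genes, and those of Usp18, Mx1, Mx2, Oas2, Tap2 and Parp14 were not analysed here. The core of the response element was searched as GAAANNGAA on both strands, its reverse reading being TTCNNTTTC. It stood in the promoters of 12 of the 25 genes (48%), against 9.76% of the 27025 genes with a promoter, and among the class I genes with a promoter only that of B2m held it. The sequences that follow run 5′ to 3′ on the strand of the gene, with the core in capitals, and are shown because they come from a sensor, a transcription factor, antiviral effectors and the class I light chain.
Ifih1: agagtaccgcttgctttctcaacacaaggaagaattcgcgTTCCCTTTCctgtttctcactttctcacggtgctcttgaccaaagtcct
Stat2: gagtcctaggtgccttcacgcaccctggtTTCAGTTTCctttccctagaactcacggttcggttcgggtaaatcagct
Ifit1: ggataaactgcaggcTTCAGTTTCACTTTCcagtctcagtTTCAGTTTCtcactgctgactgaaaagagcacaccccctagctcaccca
Ifit3: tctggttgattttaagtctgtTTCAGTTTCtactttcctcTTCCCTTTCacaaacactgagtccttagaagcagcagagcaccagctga
Bst2: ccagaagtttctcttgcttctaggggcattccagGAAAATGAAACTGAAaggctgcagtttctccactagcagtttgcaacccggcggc
B2m: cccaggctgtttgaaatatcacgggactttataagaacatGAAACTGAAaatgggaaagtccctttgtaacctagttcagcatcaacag

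The windows lie at chr2:62646319-62646407 (minus strand) for Ifih1, chr10:128270248-128270325 (plus) for Stat2, chr19:34640765-34640853 (plus) for Ifit1, chr19:34583387-34583475 (plus) for Ifit3, chr8:71537548-71537636 (minus) for Bst2 and chr2:122147508-122147596 (plus) for B2m. The Ifit1 window holds 3 cores, 2 of them overlapping, and the nearest begins 84 bases before the gene start. Ifit3 has 2 cores in its window and Bst2 has 2 that overlap, while the windows of Stat2, Ifih1 and B2m hold 1 each. Over the whole promoter searched, Ifih1 has 2 cores and Ifit3 has 3. In B2m the core begins 139 bases before the start and reads on the same strand as the gene. A match describes these letters only, and does not show that a factor bound there. Tap1 and Psmb9 lie head to head on chromosome 17, and their promoter windows, which overlap and do not hold the core, are chr17:34187306-34187605 and chr17:34187281-34187580.

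Nr3c1 was lower on the GR_KO arrays at its probe set 1460303_at, with signals of 377, 307, 307 and 352 in WT and 134, 79, 76 and 94 in GR_KO muscle, so the groups did not overlap. Its probe set 1421867_at was 289, 213, 287 and 513 in WT and 222, 169, 120 and 105 in GR_KO muscle, and there the groups overlapped. A further Nr3c1 probe set, 1457635_s_at, lay between 100 and 189 in WT and between 29 and 43 in GR_KO muscle, without overlap. At its remaining probe sets, 1421866_at, 1431378_at and 1453860_s_at, the groups overlapped. The median signal of an array lay between 18 and 26. WT replicate 4 stood apart: the geometric mean of its 16 spike-in control probe sets was 3918, which was 2.94-fold the median of the other arrays, and the other arrays lay between 0.801-fold and 1.32-fold of the median of theirs. Muscle fibre genes were bright on every array, as with Acta1, skeletal actin, at 12134, 11418, 9942 and 28292 in WT and 9925, 16235, 15794 and 10779 in GR_KO muscle.

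No difference between WT and GR_KO muscle was detected for any of the 25 tested genes. Class I genes, antiviral effectors, RNA sensors and their transcription factors had overlapping signals in the 2 groups in every case, and fold changes lay between -0.40 for Oas2 and 0.31 for Bst2. The WT muscles differed among themselves, with WT replicate 4 the highest array for 16 of the 25 genes. Because the tissue was measured in bulk, fewer cells of a type and less RNA per cell cannot be told apart in any value given here.

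A two-sided limma test, adjusted by the Benjamini-Hochberg method across the 11062 genes, called 0 of the 25 genes at an adjusted p of 0.05, where it called 0.0542% of all genes, and the smallest adjusted p of the list was 0.880. At an unadjusted p of 0.05 it also took 0 of the 25, against 4.63% of all genes, and 0 of the 25 had groups that did not overlap, against 2.58% of all genes. The fold change was below 0 for 15 genes and above 0 for 10, with a median of -0.12 against 0.01 over all genes tested. For 19 of the 25 the fold change was smaller than its SE. The 95% interval lay within -1 to 1 on the log2 scale for 22 of the 25, so changes of 2-fold or more were outside it for those genes, and the exceptions were Stat2, Oas2 and Gbp3. Without WT replicate 4 the median was 0.12 against 0.02 over all genes, 18 of the 25 were above 0, and 8 genes changed sign. That fit still called 0 of the 25, against 0.0362% of all genes, so leaving out this array turned the sign of the list's median and added no call. The median was also near 0 with a filter at the 70th percentile of signal, 0.0023 over the 20 genes it kept, and with array weights, -0.0043.

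**Figure D1:**
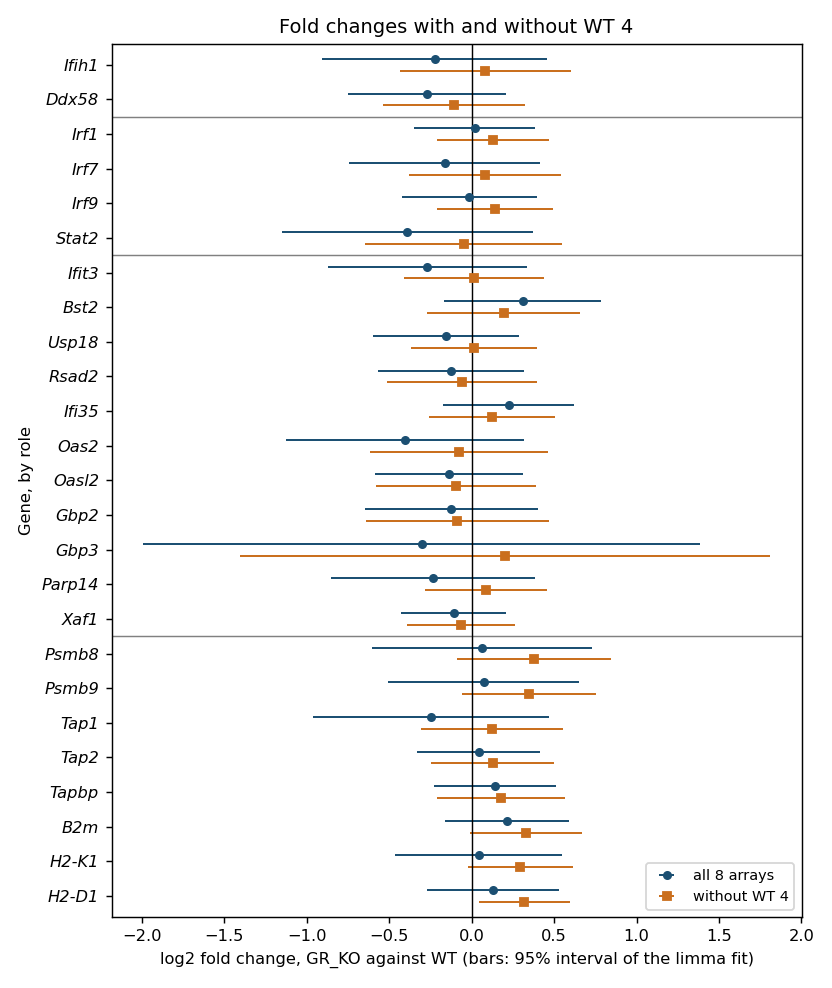
Log2 fold change (x axis, GR_KO against WT) of the 25 tested genes (y axis, in blocks by role), with all 8 arrays (circles) and without WT replicate 4 (squares); bars are 95% intervals of the limma fit. With all 8 arrays every interval crosses 0, and without WT replicate 4 all 8 class I genes lie above 0 and only the interval of H2-D1 excludes it.

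The RNA sensors Ifih1 (MDA5) and Ddx58 (RIG-I) recognise viral RNA in the cytosol and switch on interferon production. Ifih1 was 44, 53, 33 and 100 in WT and 56, 39, 42 and 45 in GR_KO muscle. Ddx58 was 69, 94, 95 and 135 in WT and 101, 76, 69 and 74 in GR_KO muscle. Both were highest on WT replicate 4, and their other arrays were intermixed. Their fold changes were -0.22 ± 0.31 and -0.27 ± 0.22 (SE; limma adjusted p = 0.908 and 0.880). Without WT replicate 4 the value of Ifih1 was 0.08 and that of Ddx58 was -0.10.

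The transcription factors of the pathway were likewise highest on WT replicate 4 in 4 of 4 cases. Stat2, a component of the interferon-activated complex, had signals of 30, 28, 34 and 79 in WT and 38, 31, 21 and 31 in GR_KO muscle. Its fold change was -0.39 ± 0.35 (limma adjusted p = 0.881), and without WT replicate 4 it was -0.05. Irf9, the DNA-binding partner of Stat2, was 76, 96, 88 and 132 in WT and 91, 105, 92 and 93 in GR_KO muscle, a fold change of -0.01 ± 0.19 (limma adjusted p = 0.991). The GR_KO signals of Irf9 lay inside the WT range. Irf7, which amplifies type I interferon production, was 93, 96, 102 and 190 in WT and 73, 103, 103 and 142 in GR_KO muscle, with a fold change of -0.16 ± 0.26. Irf1, induced by interferon gamma and a regulator of class I genes, was 218, 261, 258 and 334 in WT and 262, 312, 285 and 221 in GR_KO muscle, with a fold change of 0.02 ± 0.17. The interval of Irf1 ran from -0.35 to 0.38, narrower than that of Stat2, from -1.15 to 0.37.

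Among the antiviral effectors, Ifit3, which takes part in the recognition of foreign RNA, had signals of 74, 109, 82 and 191 in WT and 100, 71, 95 and 89 in GR_KO muscle. Its means were 114 ± 53.5 and 88.8 ± 12.7 (SD, n = 4 arrays each), and its fold change was -0.27 ± 0.27 (limma adjusted p = 0.881), or 0.01 without WT replicate 4. Oas2, an enzyme that makes the activator of RNase L, was 39, 42, 51 and 109 in WT and 58, 40, 32 and 40 in GR_KO muscle. Oas2 had the lowest fold change of the list, -0.40 ± 0.33 (limma adjusted p = 0.880), and it was -0.07 without WT replicate 4. Parp14, an ADP-ribosyltransferase, was 80, 74, 87 and 195 in WT and 102, 82, 83 and 76 in GR_KO muscle. In these 3 genes a single WT array lay above all others and the remaining arrays of both groups were intermixed. Usp18, which removes Isg15 from proteins and restrains interferon receptor signalling, was 63, 65, 55 and 97 in WT and 57, 59, 63 and 67 in GR_KO muscle, with a fold change of -0.16 ± 0.20 that was 0.01 without WT replicate 4.

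At the probe sets used, Bst2 and Ifi35 were the 2 genes of the list that were lowest on WT replicate 4. Bst2 (tetherin), which holds budding virions at the cell surface, was 116, 148, 138 and 97 in WT and 119, 123, 206 and 180 in GR_KO muscle. It had the highest fold change of the list, 0.31 ± 0.22, and its p was the smallest (limma unadjusted p = 0.179, adjusted p = 0.880). GR_KO replicates 3 and 4 lay above all WT signals of Bst2. Ifi35, an interferon-induced leucine zipper protein, was 568, 791, 672 and 504 in WT and 573, 690, 838 and 855 in GR_KO muscle, a fold change of 0.22 ± 0.18 (limma adjusted p = 0.880). The Ifi35 groups overlapped, with GR_KO replicates 3 and 4 above all WT signals. Other Ifi35 probe sets above the signal limit were not lowest on WT replicate 4. In WT muscle 1424617_at was 93, 144, 152 and 149, and 1459151_x_at was 102, 125, 95 and 117. They gave fold changes of 0.24 ± 0.26 and 0.06 ± 0.14, with overlapping groups. Rsad2 (viperin), an antiviral enzyme, was 312, 246, 270 and 332 in WT and 236, 324, 339 and 187 in GR_KO muscle. Its fold change was -0.13 ± 0.20, and its other probe sets above the signal limit gave 0.18 ± 0.26 and -0.19 ± 0.23, both highest on WT replicate 4. Xaf1, a pro-apoptotic factor, lay between 131 and 179 on all 8 arrays, highest on WT replicate 4, with a fold change of -0.11 ± 0.14. Oasl2, a relative of the Oas enzymes, lay between 35 and 54 on all arrays, with a fold change of -0.14 ± 0.20.

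The guanylate-binding proteins, GTPases that attack intracellular pathogens, varied in both groups. Gbp2 was 118, 75, 86 and 101 in WT and 120, 63, 69 and 105 in GR_KO muscle, so replicates 1 and 4 were the higher arrays of each group, and its fold change was -0.12 ± 0.24. Gbp3 was 40, 13, 9 and 68 in WT and 71, 7, 12 and 23 in GR_KO muscle. Its mean signal was close to the limit for testing, and its fold change of -0.30 ± 0.77 had an interval from -1.99 to 1.39, the widest of the list. The Gbp2 probe set carries a suffix that marks possible cross-hybridisation, and a Gbp2 probe set without it was 76, 67, 65 and 110 in WT and 107, 49, 58 and 73 in GR_KO muscle, a fold change of -0.18 ± 0.27.

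The 4 dim genes were not tested. Ifit1 and Ifit2, relatives of Ifit3, were 22, 12, 11 and 70 and 17, 16, 10 and 71 in WT, and 20, 16, 11 and 17 and 25, 15, 12 and 20 in GR_KO muscle. Mx1, a gene of the Mx GTPase family, was 1, 16, 1 and 68 in WT and 18, 12, 14 and 3 in GR_KO muscle. Its paralog Mx2 lay between 1 and 3 on all arrays. WT replicate 4 was the highest array for all 4 of them, and for Ifit1, Ifit2 and Mx1 it was the array furthest above the signal limit of 19.4. No fold is given for these genes, since most of their signals lay at or below that limit.

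The class I pathway had 7 of 8 fold changes above 0, with a median of 0.07, and none passed the test. B2m, the light chain that all class I molecules share, had signals of 1731, 1851, 2180 and 2646 in WT and 2698, 1933, 2340 and 2734 in GR_KO muscle. Its means were 2102 ± 409 and 2426 ± 374 (SD, n = 4 arrays each), and its fold change was 0.21 ± 0.17 with an interval from -0.16 to 0.59 (limma adjusted p = 0.880). The groups overlapped, since GR_KO replicate 2 was below 2 of the WT arrays. A further B2m probe set gave 0.27 ± 0.18.

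The heavy chains H2-K1 and H2-D1, which carry the peptide, were highest on WT replicate 4. H2-K1 was 1533, 2065, 2156 and 3811 in WT and 2501, 2301, 2266 and 2248 in GR_KO muscle, a fold change of 0.04 ± 0.23 (limma adjusted p = 0.976). H2-D1 was 1226, 1350, 1467 and 2265 in WT and 1676, 1574, 1670 and 1800 in GR_KO muscle, a fold change of 0.13 ± 0.18 (limma adjusted p = 0.907). In both genes the 4 GR_KO signals lay close together, above WT replicates 1 to 3 and below WT replicate 4. Without that array the fold changes were 0.29 ± 0.15 for H2-K1 and 0.32 ± 0.13 for H2-D1 (limma unadjusted p = 0.0666 and 0.0259, adjusted p = 0.995 for both). In that fit these were the 2 of 25 genes whose groups did not overlap, with GR_KO higher, against 2.36% of all genes, and H2-D1 was the 1 of 25 at an unadjusted p of 0.05, against 4.57% of all genes. The array left out was the highest for both genes, so this is a description of the remaining 7 arrays. Class I heavy chains share much of their sequence and both probe sets carry the cross-hybridisation suffix, so signal of 1 chain on the probes of another is possible. The other H2-K1 probe sets above the signal limit were 1451931_x_at, 1427746_x_at and 1450534_x_at. Their groups overlapped with all arrays and also without WT replicate 4. For 1451931_x_at, WT replicates 1 to 3 were 752, 951 and 1067, and the GR_KO signals were 1108, 1058, 1166 and 1320. With all arrays these probe sets gave fold changes of 0.21 ± 0.17, 0.15 ± 0.28 and -0.22 ± 0.31, in the order named. Other H2-D1 probe sets above the signal limit disagreed. The probe set 1451683_x_at was 149, 229, 209 and 212 in WT and 250, 243, 250 and 280 in GR_KO muscle, with groups that did not overlap and a fold change of 0.37 ± 0.15. The bright probe set 1451784_x_at was 1080, 1302, 1429 and 1727 in WT and 1754, 1590, 1699 and 1846 in GR_KO muscle, with overlapping groups and a fold change of 0.33 ± 0.15. The only one above the limit without the suffix, 1426324_at, was 137, 173, 176 and 463 in WT and 250, 225, 171 and 185 in GR_KO muscle, a fold change of -0.03 ± 0.35, and 1452544_x_at gave 0.07 ± 0.36.

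Psmb8 and Psmb9, catalytic subunits of the immunoproteasome, and the peptide transporter genes Tap1 and Tap2 are neighbours within the class II region of chromosome 17. Psmb8 was 89, 134, 106 and 258 in WT and 180, 164, 110 and 120 in GR_KO muscle. Psmb9 was 78, 110, 108 and 208 in WT and 138, 143, 105 and 114 in GR_KO muscle. Their fold changes were 0.06 ± 0.30 and 0.07 ± 0.26 with all arrays (limma adjusted p = 0.973 and 0.960), and 0.38 and 0.35 without WT replicate 4. Tap1, which shares its promoter region with Psmb9, was 60, 97, 82 and 218 in WT and 90, 95, 74 and 83 in GR_KO muscle, a fold change of -0.25 ± 0.33, or 0.12 without WT replicate 4. The WT range of Tap1 thus enclosed all 4 of its GR_KO signals. Tap2 was more even, at 75, 91, 83 and 105 in WT and 107, 79, 85 and 93 in GR_KO muscle, a fold change of 0.04 ± 0.17. Tapbp, the loading chaperone tapasin, was 395, 650, 579 and 580 in WT and 558, 538, 647 and 663 in GR_KO muscle, a fold change of 0.14 ± 0.17 (limma adjusted p = 0.890).

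**Figure D2:**
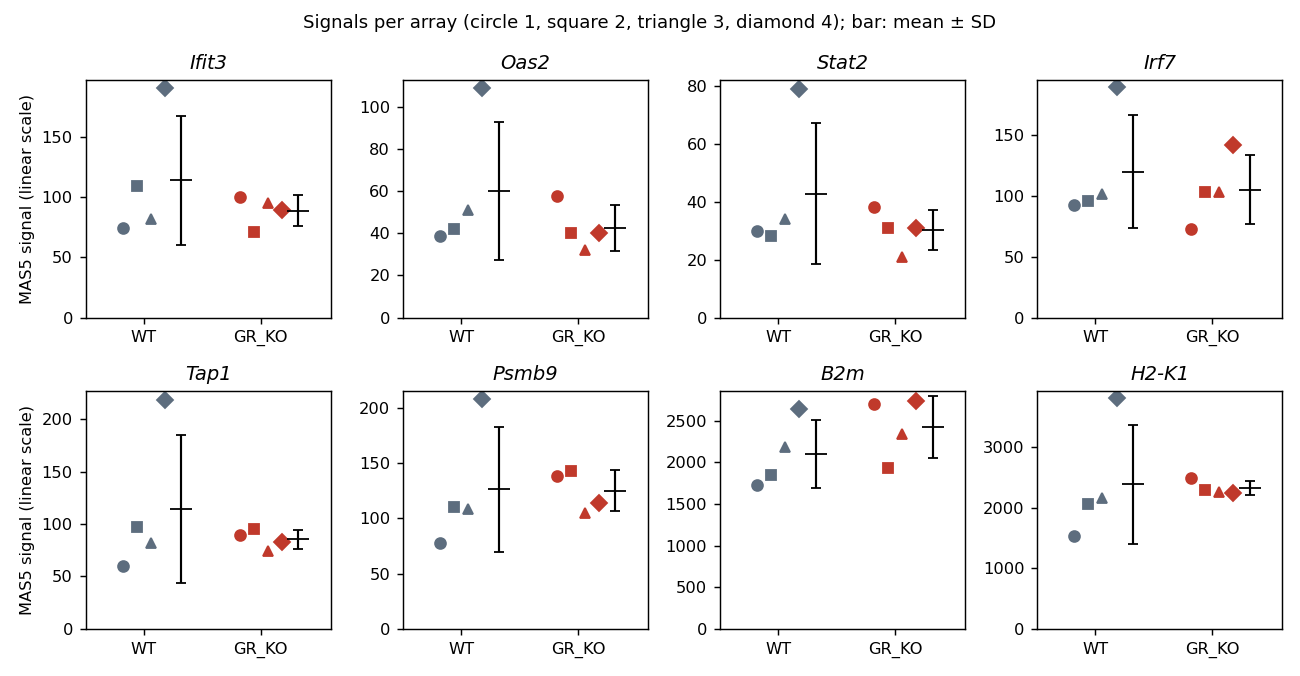
MAS5 signal (y axis, linear scale) of 8 of the genes on each WT and GR_KO array (x axis, groups; the marker shape gives the replicate number), with the mean ± SD of 4 arrays per group as a bar. WT replicate 4 is the highest array in 7 of the panels, while B2m is highest on GR_KO replicate 4 at 2734.

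The list's levels covered a wider range on the WT arrays than on the GR_KO arrays only with WT replicate 4 included. Each gene's log2 signal was taken relative to its own mean over the 8 arrays. The 25 genes then averaged -0.22, -0.06, -0.15 and 0.58 on the WT arrays and 0.11, -0.14, -0.11 and -0.02 on the GR_KO arrays. The SD was 0.37 in WT and 0.11 in GR_KO muscle. WT replicates 1 to 3 alone spanned -0.22 to -0.06, a narrower range than that of the GR_KO arrays, -0.14 to 0.11. WT replicate 4 was the highest array for 64% of the list, against 26.4% of all tested genes, and it was at least 2-fold above the median of the other arrays for 8 of the 25, against 7.66% of all genes. The 8 were Ifih1, Stat2, Ifit3, Oas2, Parp14, Gbp3, Psmb8 and Tap1, between 2.15-fold for Ifit3 and 5.23-fold for Gbp3. Scaling changed the size of this difference: WT replicate 4 was the highest array for 15 of the 25 and 21.1% of all genes after quantile normalization, and for 11 of the 25 and 12.2% of all genes after median centring. For each gene the log2 signal of WT replicate 4 was also compared with the median log2 signal of the other arrays. The median of this log2 difference was 0.62 for the list and -0.02 for all genes as deposited. It was 0.61 and -0.15 after quantile normalization, and 0.28 and -0.37 after median centring. At the other end, WT replicate 1 was the lowest array for 8 of the 8 class I genes and for 11 of the 25 in all, and class I averaged -0.50 there. Between these extremes, WT replicates 2 and 3 and the 4 GR_KO arrays had class I means from -0.13 to 0.15.

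**Figure D3:**
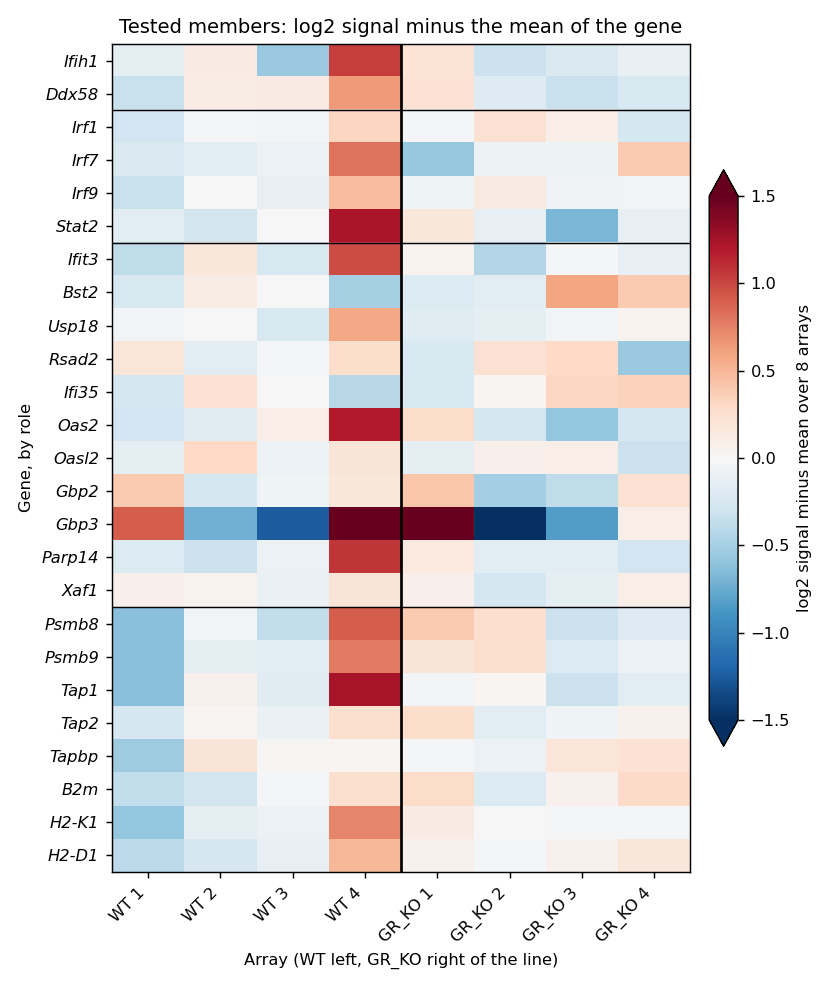
Log2 signal of each tested gene relative to its mean over the 8 arrays (colour), by gene (y axis, in blocks by role) and array (x axis, WT left and GR_KO right of the line); Gbp3 runs past the colour scale on some arrays. WT replicate 4 is the highest array for 16 of the 25 genes, and the class I block is lowest on WT replicate 1.

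High values on WT replicate 4 occurred in genes with and without the response element core. Of the 9 tested genes whose promoter held the core, 4 were highest on that array, and of the 12 whose promoter did not, 9 were. The median log2 difference of WT replicate 4 from the other arrays was 0.83 for the former and 0.52 for the latter. Over all tested genes with a promoter this median was 0.03 for the 765 with the core and -0.03 for the 8188 without. Of these genes 31.2% with the core and 25.8% without were highest on WT replicate 4. Whether the core had a part in these levels was not tested.

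The rest of the pathway also had 0 genes called in each list, against 0.0542% of all genes. WT replicate 4 was the highest array for 3 of 14 tested interferon, receptor and kinase genes. It was highest for 6 of 11 in nucleic acid sensing and 5 of 15 in further class I loading, against 26.4% of all genes. Of the interferons, their receptors and kinases, 14 of 22 were tested, 7 with fold changes above 0 and 7 below, and the smallest p-values belonged to Socs3, the feedback inhibitor of Jak kinases, with -0.57 ± 0.32, the receptor chain Ifngr1 with 0.26 ± 0.19 and the kinase Jak1 with 0.19 ± 0.18 (limma adjusted p = 0.880, 0.880 and 0.881). Of 21 further genes of nucleic acid sensing 11 were tested, 6 above 0 and 5 below, led by Eif2ak2, the RNA-activated kinase PKR, with -0.46 ± 0.35. Irf5, a transcription factor of this arm, had 0.22 ± 0.22, and Trim25, the ligase that activates RIG-I, had -0.13 ± 0.17. The further genes of class I loading, with other heavy chains, had 15 of 26 tested, 7 above 0 and 8 below. There Mr1, which presents vitamin metabolites, had -0.64 ± 0.30, the chaperone Calr had 0.29 ± 0.19 and the proteasome activator Psme1 had 0.27 ± 0.18.

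Among 60 other interferon-stimulated genes 46 were tested, with 16 fold changes above 0 and 30 below, a median of -0.07, and 33 of the 46 highest on WT replicate 4. Without that array the direction turned, with 32 above 0 and 14 below and a median of 0.10. That fit took 6 of the 46 at an unadjusted p of 0.05, against 4.57% of all genes, and 6 had GR_KO higher without overlap, against 2.36% of all genes, with 0 called. With all arrays, at an unadjusted p of 0.05 limma took 3 of the 46, against 4.63% of all genes, and 2 had groups that did not overlap, against 2.58%. Irgm2, an immunity-related GTPase, was 75, 69, 79 and 62 in WT and 101, 107, 88 and 114 in GR_KO muscle, a fold change of 0.52 ± 0.16 (limma adjusted p = 0.850). Ifi27, an interferon-induced mitochondrial protein, was 226, 204, 237 and 224 in WT and 289, 254, 295 and 293 in GR_KO muscle, a fold change of 0.34 ± 0.13 (limma adjusted p = 0.880). In both genes every GR_KO signal was above every WT signal, and WT replicate 4 did not stand out. Ifitm3, which blocks viral entry, was 1654, 2126, 1980 and 951 in WT and 1727, 2186, 2862 and 3074 in GR_KO muscle, with overlapping groups and a fold change of 0.58 ± 0.26. After adjustment over all genes none of the 3 passed.

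Class II presentation genes, which antigen-presenting cells express, had 8 of 10 tested, all 8 with fold changes below 0, a median of -0.36 and 7 of 8 highest on WT replicate 4. H2-Oa, a modulator of class II loading, was 11, 54, 35 and 146 in WT and 86, 41, 4 and 8 in GR_KO muscle. Its fold change was -1.19 ± 0.97 (limma adjusted p = 0.880). Ctss, the protease cathepsin S, had -0.69 ± 0.61, and Ciita, the master regulator of class II, had -0.36 ± 0.42. Without WT replicate 4 the median of the 8 was 0.01, with 4 above 0.

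Markers of leukocytes moved with the list on some arrays and not on others. Ptprc, the leukocyte antigen CD45, was 10, 91, 84 and 999 in WT and 379, 96, 17 and 11 in GR_KO muscle. All 6 general leukocyte markers were highest on WT replicate 4, and their summed signal ranged from 257 to 3764 in WT and from 338 to 1939 in GR_KO muscle. Of 12 markers of T, B and NK lymphocytes 11 had a probe set and 6 were tested, all 6 highest on WT replicate 4, with a summed signal from 79 to 1387 in WT and from 51 to 710 in GR_KO muscle. Cd3g and Nkg7 were each listed at 0 on 1 GR_KO array. Macrophage markers varied less: 10 of 14 were tested, 1 was highest on WT replicate 4, and the sum ranged from 650 to 1009 in WT and from 706 to 975 in GR_KO muscle. Plasmacytoid dendritic cells, the main producers of type I interferon, had 4 of 6 markers tested, among them Cox6a2, which muscle fibres also express, and their defining marker Siglech lay between 3 and 19 on all arrays.

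Class I genes and general leukocyte markers were both highest on WT replicate 4, then on GR_KO replicate 1, and both lowest on WT replicate 1. The order of the other arrays differed between them. On WT replicate 1 and GR_KO replicates 3 and 4 the general leukocyte markers averaged -1.98, -1.51 and -1.92 relative to their mean over the arrays, and the tested lymphocyte markers -1.96, -2.59 and -1.95. Class I genes averaged -0.50 on the first of these arrays, and -0.08 and 0.03 on the other two. On WT replicate 4 and GR_KO replicate 1 the general leukocyte markers averaged 2.26 and 1.42, and class I averaged 0.58 and 0.15. On WT replicates 2 and 3 and GR_KO replicate 2 these markers averaged 0.56, 0.56 and 0.63. Class I averaged -0.07, -0.13 and 0.006 on those arrays. With the leukocyte marker level as a covariate, a fit chosen after seeing the data, limma called 0 of the 25 genes, and the median was -0.10. The fold changes were 0.25 ± 0.17 for B2m, 0.16 for H2-K1, 0.19 for H2-D1, 0.26 for Psmb8 and -0.07 for Tap1. Outside class I, Oas2 went from -0.40 to -0.23, Stat2 from -0.39 to -0.23, Ifit3 from -0.27 to -0.16 and Parp14 from -0.23 to -0.10. Further from 0 were Irf1 (0.02 to 0.09), Irf9 (-0.01 to 0.06) and Gbp2 (-0.12 to -0.14).

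Signals from cells of the muscle itself also differed on WT replicate 4. Of the 14 muscle fibre markers 13 were highest there, and their sum ranged from 149517 to 333163 in WT and from 135585 to 214582 in GR_KO muscle. Endothelial markers, 14 of 14 tested, and fibroblast markers, 9 of 10 tested, had 0 genes highest on that array and averaged -0.39 and -0.72 there. Their median fold changes were 0.37 and 0.34, with 4 of 14 and 2 of 9 at an unadjusted p of 0.05 by limma, against 4.63% of all genes, and 0 called in each. Without WT replicate 4 the medians were 0.27 and 0.23, with 2 of 14 and 1 of 9 at that p, against 4.57% of all genes. The part that leukocytes, fibre content or the array itself had in the levels of the interferon-stimulated and class I genes was not tested.

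**Figure D4:**
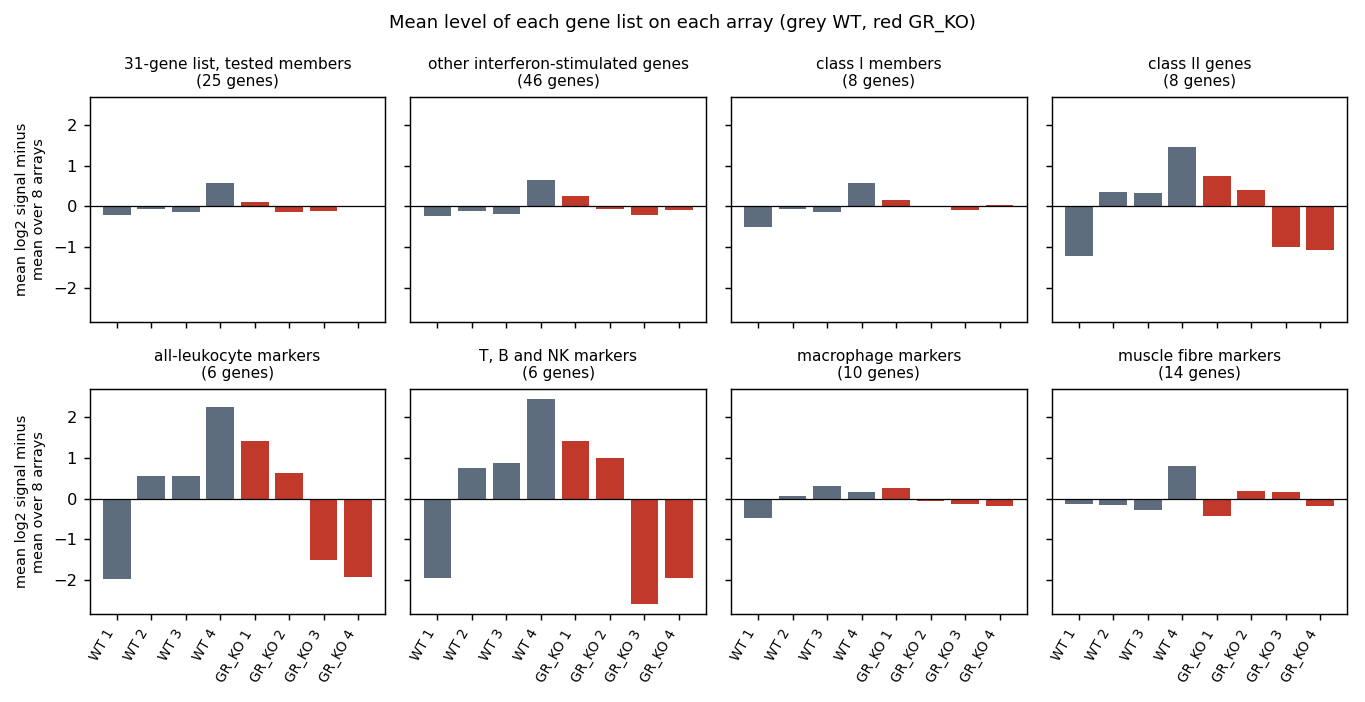
Mean log2 signal of each gene list on each array relative to the list's mean over the 8 arrays (y axis), for WT (grey) and GR_KO (red) arrays (x axis), with the number of tested genes above each panel. The 25 genes reach 0.58 on WT replicate 4, where the leukocyte and lymphocyte markers reach 2.26 and 2.44 and the muscle fibre markers 0.79, while macrophage markers average 0.16.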

How the data were processed

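The deposited values are array signal intensities on a linear scale, which the authors made with MAS5 per the submitters' processing notes. MAS5 version and scaling target were not given in the sources used here, and the mean of each array without the lowest and highest 2% of probe sets was 99.96. Each gene was represented by its brightest single-symbol probe set (34945 of 45037 non-control probe sets, 932 having several symbols and 9160 none). Log2 signals were used without a pseudocount or further scaling. Signals of 0, of which there were 6388 among non-control probe sets, were set to the smallest positive signal of the array. For Cd3g this applied to GR_KO replicate 3. Genes at or below the median signal of all probe sets, 19.4, were not tested. Groups were compared with limma 3.58.1 in R 4.3.3 (lmFit, eBayes with trend, Benjamini-Hochberg over 11062 genes), and Python 3.11.15 handled tables and figures. The number of arrays, 4 per group, limits the precision. The members and lists were chosen with earlier results of these data known. The text names Nr3c1, Ptprc and Acta1, all listed genes, and of each pathway list the 3 genes with the smallest p. Siglech, Cox6a2, Cd3g and Nkg7 were named after their values were seen. Scripts were tested on simulated data. Alternatives changed the scaling, pseudocount, filter, probe set choice, variance prior, array weights, replicate block and spike-in covariate, or left out each array. A leukocyte covariate was added after the data had been seen.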

Additional observations from a re-analysis of the deposited data

Results flagged for a closer look

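Among 92 groups of 4 arrays that were looked at, 6 held an array that stood far from the other 3, measured on log2 signals as its gap to the nearest array over the range of the group, with 0.829 as the limit. Of these, 5 were WT replicate 4 on the high side. At this limit chance alone gives such an array in about 1 in 20 groups.

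Irf7 had a ratio of 0.871 in WT muscle, where replicate 4 was 190 and the others 93 to 102. Parp14 had 0.833, with 195 on WT replicate 4 and 74 to 87 on the others. Mx2 had a ratio of 1 in WT muscle, but its signals were 2, 2, 2 and 3, at the bottom of the scale. Irf9 had 0.848 in GR_KO muscle, where replicate 2 was 105 and the others 91 to 93, a narrow range in absolute terms.

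The mean level of the other interferon-stimulated genes gave 0.876 in WT muscle, with 0.66 on replicate 4 and -0.24 to -0.12 on the other WT arrays. The mean level of the muscle fibre markers gave 0.859, with 0.79 on WT replicate 4 and -0.27 to -0.12 on the others.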

How the results depend on the processing

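None of the tested genes of the list was called under any of the 19 alternatives (25 genes, or 20 with the filter at the 70th percentile), and the smallest adjusted p was 0.478, without GR_KO replicate 1. Of 470 fold changes recomputed for single genes 32 changed sign, and 9 genes never did. The cause of the changes was not tested. Over all genes the count called was 6, and it was 0 with no filter, 1 with the mean of a gene's probe sets, 2 without the variance trend, 10 with array weights, 3 with the spike-in covariate, 9 after quantile normalization, 4 after median centring and 0 to 5 when each array was left out. Same-numbered replicates were not treated as pairs in the main fit (correlations of their deviations were -0.19, 0.18, 0.11 and -0.39). These correlations cannot show whether the samples were paired. With the replicate block 1 gene was called. The median of the list ran from -0.16 to 0.12 over the left-out arrays, and genes whose groups did not overlap numbered 0 to 2.

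Irf9 (-0.01 as reported) was 0.020 after quantile normalization, 0.019 after median centring, 0.093 with array weights, 0.052 with the spike-in covariate and 0.059 with the leukocyte covariate. Irf7 was 0.10 with array weights, and Psmb8 was -0.50 with the mean of its probe sets, of which 1 was dim. With the mean of probe sets, dim ones included, Xaf1 went from -0.11 to -0.44, Parp14 from -0.23 to -0.59 and Tap1 from -0.25 to -0.52. With each array left out in turn, fold changes ran from -0.076 to 0.13 for Irf1, -0.32 to 0.079 for Irf7, -0.13 to 0.14 for Irf9, -0.44 to 0.015 for Ifit3, -0.26 to 0.013 for Usp18, -0.25 to 0.039 for Rsad2, -0.38 to 0.088 for Parp14, -0.28 to 0.028 for Gbp2, -0.93 to 0.20 for Gbp3 and -0.45 to 0.084 for Ifih1. In class I they ran from -0.13 to 0.38 for Psmb8, -0.13 to 0.35 for Psmb9, -0.50 to 0.12 for Tap1, -0.039 to 0.13 for Tap2, -0.0074 to 0.23 for Tapbp and -0.14 to 0.29 for H2-K1. Signals near 19.4 limit what Gbp3 and the 4 dim genes can show.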
